A study of Mus musculus with 12 samples.

Results

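The negative feedback genes of Wnt signaling are target genes of the pathway whose products dampen it. The 10 genes described here, *Axin2*, *Nkd1*, *Rnf43*, *Znrf3*, *Notum*, *Wif1*, *Dkk2*, *Dkk3*, *Apcdd1* and *Sp5*, were selected by name as Wnt-induced genes of secreted, membrane and intracellular inhibitors, and all 10 were found among the 54532 genes of both expression tables. The study deleted ieCtnnb1, an intestinal enhancer upstream of *Ctnnb1*, the gene of β-catenin, in C57BL/6 background mice, and asked how the dosage of Wnt signaling then changes in normal intestine and in tumors. Bulk RNA-seq was performed on small intestinal crypts in 3 libraries of wild-type and 3 of homozygous ieCtnnb1 knockout (*Ctnnb1Δi.enh*) mice, and on colon tumors in 3 libraries of *ApcMin/+* and 3 of *Ctnnb1Δi.enh;ApcMin/+* mice. All animals were adult and untreated, and the tumors came from mice 5 months of age. The deletion is in the germline and so is present in every cell of the knockout animals. Both tumor groups carry *ApcMin*, a nonsense mutation of 1 *Apc* allele that yields a truncated protein, so no tumor library represents a normal *Apc* genotype.

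In the absence of Wnt ligands, a destruction complex built on the scaffold proteins APC and AXIN marks β-catenin for degradation. Ligand binding to Frizzled and LRP receptors halts this complex, and β-catenin then enters the nucleus and activates target genes together with TCF/LEF factors. Some of these targets act back on the pathway at each of its levels, from the ligand outside the cell to the receptor at the membrane and the scaffold in the cytoplasm. In intestinal crypts Wnt signaling maintains the stem cells and Paneth cells, and in tumors with mutant *Apc* the pathway is active without ligand.

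The authors deposited fragments per kilobase of gene, with 1 scale per library (FPKM), in 1 table for crypts and 1 for tumors. The tables were normalized separately, so levels of the tissues are set side by side below as values only. The 12 libraries held between 14457896 and 16156712 fragments assigned to genes, as recovered from the steps in which FPKM times gene length increases. The scale did not follow these totals. In wild-type crypts 1 fragment per kilobase was 0.0646 FPKM in replicate 1, with 14457896 fragments, and 0.0654 in replicate 2, with 16042558. Rescaling by the median of gene ratios between libraries left the fold changes of a tissue as they were. Differences are given as log2 fold changes of FPKM + 0.5, knockout minus control, with their standard error (SE). The added 0.5 shrinks the fold change of scarce genes. The test was limma over every gene whose FPKM averaged 0.5 or more across the 6 libraries of a tissue. In bulk RNA, fewer cells of a type and less RNA per cell cannot be told apart. The figure legends of the study count as many mice as there are libraries in each group, so p-values measure the spread between mice.

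*Ctnnb1* (chr9:120929216-120960507, plus strand), the gene served by the deleted enhancer, was measured first. Wild-type crypts had 121, 134 and 123 FPKM of it and *Ctnnb1Δi.enh* crypts 102, 104 and 105. Tumors had 299, 363 and 358 FPKM in *ApcMin/+* libraries and 279, 248 and 250 in *Ctnnb1Δi.enh;ApcMin/+* libraries. Every knockout library was below every control library in both tissues, in the direction that the labels imply. The log2 fold change was -0.28 in crypts (SE 0.118, limma adjusted p = 0.849) and -0.39 in tumors (SE 0.128, limma adjusted p = 0.303), so it did not pass the threshold of 0.05 in either tissue. With all libraries scaled to the same total, the crypt value was -0.13 and the crypt groups overlapped, whereas the tumor value was -0.50 without overlap.

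The feedback genes were at very different levels in the small intestinal crypts and in the colon tumors. These tissues also differ in gut region, *Apc* genotype and stromal content, and the part of each was not tested. In wild-type crypts *Axin2* was the most abundant at 21.2 ± 1.79 FPKM (SD, n = 3), followed by *Rnf43* at 10.8 ± 0.649 (SD, n = 3), *Sp5* at 6.53 ± 0.716 (SD, n = 3) and *Znrf3* at 2.19 ± 0.0644 (SD, n = 3). *Nkd1* came next, without overlap with *Znrf3*, whereas the libraries of *Nkd1*, *Apcdd1*, *Dkk3*, *Wif1* and *Notum* overlapped from each gene to the next in that order. In *Ctnnb1Δi.enh* crypts the order was the same, but *Rnf43* and *Sp5* overlapped and *Nkd1* and *Apcdd1* did not. *Notum*, *Wif1*, *Dkk2* and *Dkk3*, all of them genes of secreted proteins, were below a mean FPKM of 0.5 in crypts and were not tested there, which leaves 6 of the 10 genes.

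In tumors all 10 genes passed that minimum. The secreted Wnt inhibitor *Wif1* had the highest mean in *ApcMin/+* tumors, 239 ± 22.1 FPKM (SD, n = 3), and *Znrf3* the lowest, 18.3 ± 2.80 (SD, n = 3). Between them stood *Apcdd1*, *Nkd1*, *Notum*, *Axin2*, *Rnf43*, *Dkk3*, *Sp5* and *Dkk2*, in that order. The libraries of neighboring genes overlapped for *Wif1*, *Apcdd1* and *Nkd1*, for *Notum* and *Axin2*, for *Rnf43* and *Dkk3*, and for *Sp5* and *Dkk2*. In *Ctnnb1Δi.enh;ApcMin/+* tumors *Nkd1* stood above *Apcdd1*, and the only neighbors to overlap were *Apcdd1* with *Notum* and *Sp5* with *Dkk2*. *Wif1* was at 0.187 ± 0.0822 FPKM (SD, n = 3) in wild-type crypts, *Notum* at 0.133 ± 0.121 (SD, n = 3) and *Dkk2* at 0, and these levels come from the separately normalized crypt table.

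**Figure D1:**
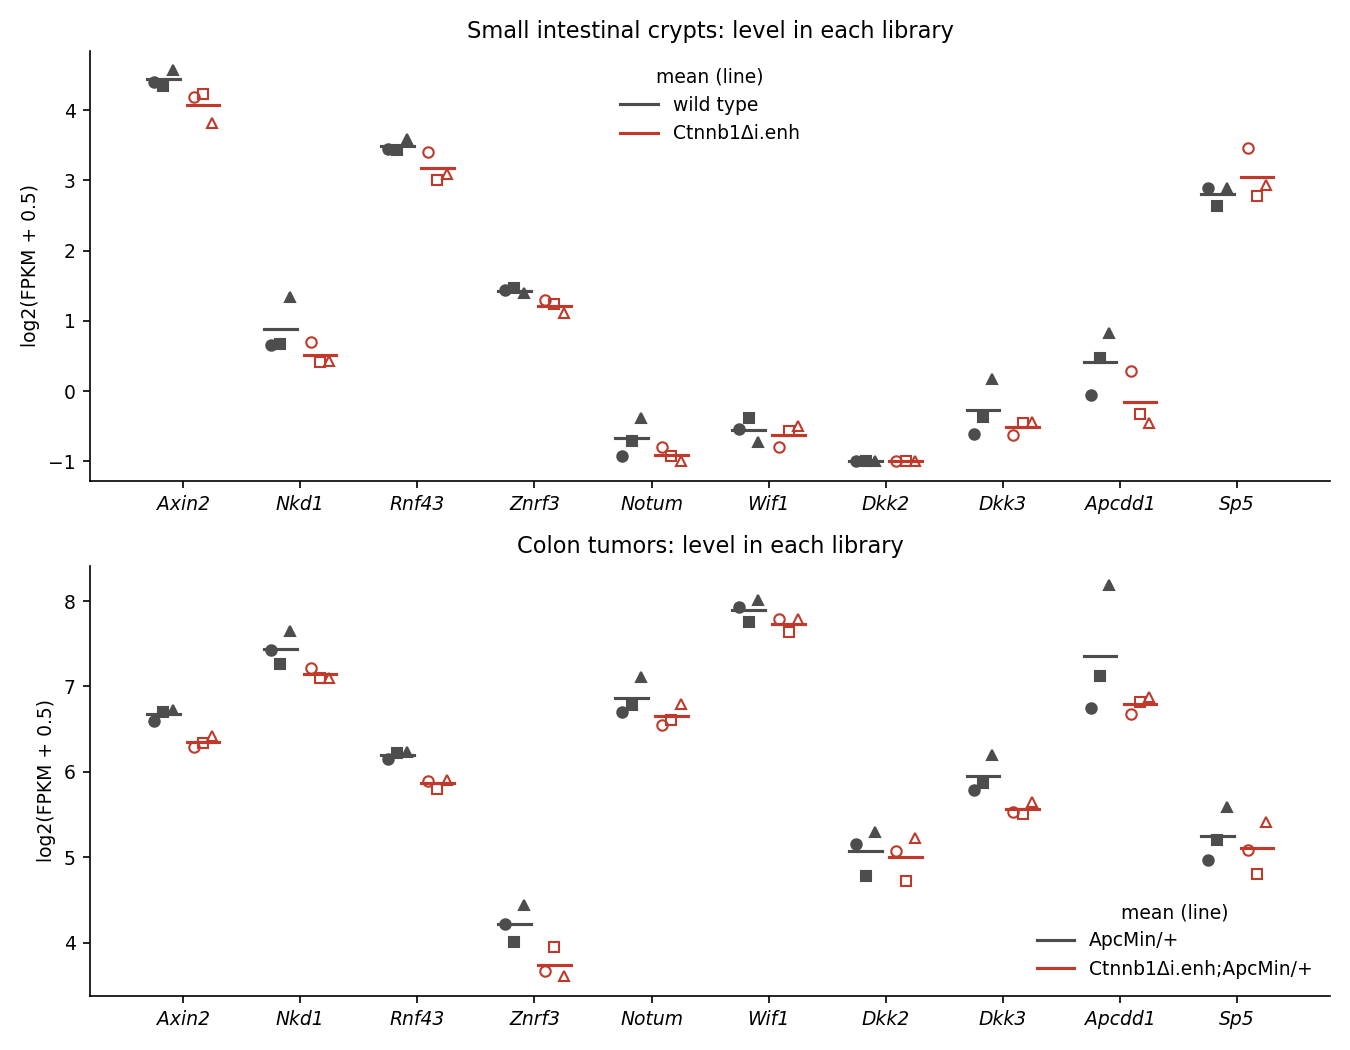
Level of each feedback gene in each library as log2(FPKM + 0.5), in crypts (top) and tumors (bottom), with filled symbols for controls, open symbols for knockouts, circle, square and triangle for replicates 1, 2 and 3, and lines for group means. In crypts *Axin2*, *Rnf43* and *Sp5* stand highest and *Dkk2* is at the floor of the scale in all 6 libraries, whereas in tumors all 10 genes lie above 11 FPKM in every library.

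Of the intracellular inhibitors, *Axin2* (chr11:108920349-108950783, plus strand) encodes a scaffold of the destruction complex and is widely used as a readout of Wnt activity. Its FPKM in crypts was 20.6, 19.8 and 23.2 in wild-type libraries and 17.7, 18.3 and 13.6 in *Ctnnb1Δi.enh* libraries. In tumors the libraries of *ApcMin/+* mice had 96.5, 104 and 106 FPKM, against 77.8, 80.8 and 85.3 in those of *Ctnnb1Δi.enh;ApcMin/+* mice. The groups did not overlap in either tissue, and the lowest crypt value belonged to knockout replicate 3, without which the crypt log2 fold change was -0.23. The knockout mean was 22.1% below the control mean in crypts and 20.2% below it in tumors. The log2 fold changes were -0.36 in crypts (SE 0.148, limma adjusted p = 0.845) and -0.32 in tumors (SE 0.0859, limma adjusted p = 0.270). An exact two-sided permutation test gave p = 0.1 in each tissue, the smallest value that 3 libraries against 3 allow.

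*Axin2* shares 2706 bases with *Gm11670*, an antisense gene with a mean of 0.785 FPKM in crypts and 6.77 in tumors. The sources used here do not state if reads were counted by strand, so fragments of such a pair cannot be told apart. *Rnf43* shares 3936 bases with *1110028F11Rik* on the same strand, with a mean of 0.585 FPKM in crypts and 6.76 in tumors. *Nkd1* shares 2917 bases with *Gm45496* on the same strand, with a mean of 0 in crypts and 1.35 in tumors.

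*Nkd1* (chr8:88521354-88594884, plus strand) encodes a cytoplasmic protein that binds Dishevelled, the adaptor between the receptors and the destruction complex. Wild-type crypts had 1.08, 1.09 and 2.03 FPKM and *Ctnnb1Δi.enh* crypts 1.12, 0.838 and 0.843. Here the groups overlapped, since knockout replicate 1 lay above wild-type replicates 1 and 2, and wild-type replicate 3 stood well above the other 5. Without that library the log2 fold change was -0.15 in place of -0.37 (SE 0.239, limma adjusted p = 0.895). In tumors *Nkd1* was at 171, 153 and 200 FPKM in *ApcMin/+* libraries and at 148, 137 and 137 in *Ctnnb1Δi.enh;ApcMin/+* libraries. Every tumor knockout value was below every control value, with a mean 19.5% lower and a log2 fold change of -0.30 (SE 0.124, limma adjusted p = 0.340), or -0.20 without control replicate 3.

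The genes whose profile over the 6 libraries was nearest to that of *Axin2* were sought among all genes with a mean of at least 1 FPKM, by the root mean square difference of mean-centered log2 values. In crypts these were *Myo1f*, *Zfp553* and *Ifi209*, with differences of 0.0601, 0.0669 and 0.07 among 12287 genes compared. In tumors they were *Zfp61*, *Vgll4* and *Cep112it*, with differences of 0.0203, 0.0400 and 0.0405 among 14550 genes compared. *Cep112it* lies on the same chromosome as *Axin2*, 93407 bases from it, and had 3.91, 4.22 and 3.96 FPKM in *ApcMin/+* tumors and 3.01, 3.20 and 3.29 in *Ctnnb1Δi.enh;ApcMin/+* tumors. *Rnf43* ranked 6 in this order in tumors and was the nearest of the feedback genes, with a difference of 0.0504, whereas in crypts the nearest feedback gene was *Znrf3* at rank 129. The other feedback genes ranked from 438 for *Dkk3* to 11797 for *Apcdd1* in tumors. In crypts the others compared ranked from 253 for *Rnf43* to 8632 for *Sp5*.

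RNF43 and ZNRF3 are transmembrane ubiquitin ligases that remove Frizzled receptors from the cell surface, and R-spondins acting through LGR receptors relieve this block. *Rnf43* (chr11:87662722-87735539, plus strand) had 10.4, 10.4 and 11.5 FPKM in wild-type crypts and 10.1, 7.56 and 8.03 in *Ctnnb1Δi.enh* crypts. In tumors it had 70.8, 74.1 and 74.5 FPKM in *ApcMin/+* libraries and 59.1, 55.1 and 59.5 in *Ctnnb1Δi.enh;ApcMin/+* libraries. The crypt groups were separated only narrowly, because knockout replicate 1 lay just under the controls, while the tumor groups were tight and well apart. Knockout means were 20.4% lower in crypts and 20.8% lower in tumors. Among the feedback genes *Rnf43* had the smallest adjusted p in tumors, with a log2 fold change of -0.33 (SE 0.0782, limma adjusted p = 0.269), beside -0.32 in crypts (SE 0.139, limma adjusted p = 0.849). Of the tumor genes with lower values in the knockout, 87 had a smaller p.

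*Znrf3* (chr11:5276324-5444847, minus strand) was less abundant than *Rnf43* in both tissues. Crypts had 2.2, 2.25 and 2.13 FPKM in wild-type libraries and 1.96, 1.85 and 1.66 in *Ctnnb1Δi.enh* libraries. Tumors had 18.1, 15.7 and 21.3 FPKM in *ApcMin/+* libraries and 12.2, 15.0 and 11.7 in *Ctnnb1Δi.enh;ApcMin/+* libraries. All knockout libraries were again below all controls, although in tumors knockout replicate 2 came within 1 FPKM of control replicate 2. The mean was 16.8% lower in crypts and 29.3% lower in tumors, with log2 fold changes of -0.21 (SE 0.133, limma adjusted p = 0.893) and -0.48 (SE 0.144, limma adjusted p = 0.289).

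**Figure D2:**
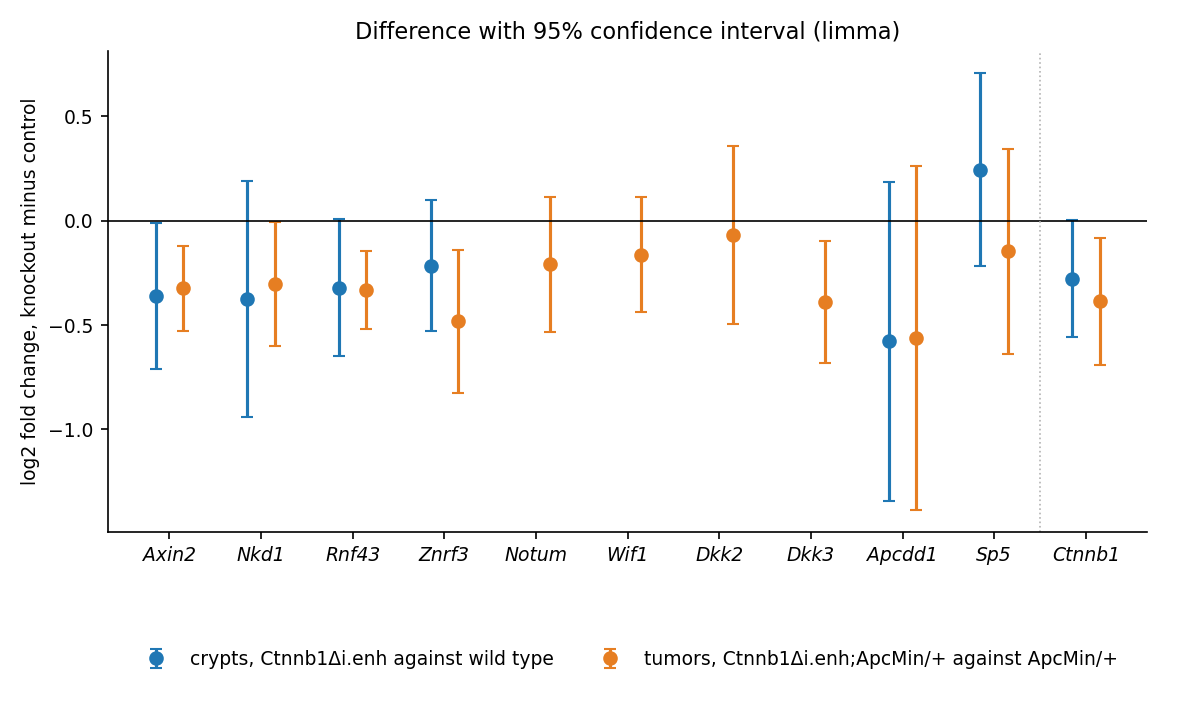
Log2 fold change of each feedback gene and of *Ctnnb1*, knockout minus control, in crypts (blue) and tumors (orange), with bars for the 95% confidence interval from limma; genes below the minimum FPKM in crypts have no blue point. Intervals exclude 0 for *Axin2* in both tissues and for *Nkd1*, *Rnf43*, *Znrf3*, *Dkk3* and *Ctnnb1* in tumors, before any adjustment for the number of genes tested.

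On the separate scales of the tissues, the secreted inhibitors were close to absent in crypts and abundant in tumors. The fibroblast markers summed to at most 5.96 FPKM in crypts and to at least 343 in tumors. Their part in these levels was not tested. NOTUM is an extracellular enzyme that removes the lipid which Wnt ligands need to bind Frizzled. *Notum* (chr11:120653788-120661175, minus strand) had 15 fragments over the 3 wild-type crypt libraries and 4 over the 3 *Ctnnb1Δi.enh* libraries, and 0 to 10 in a single library. In tumors its FPKM was 103, 110 and 137 in *ApcMin/+* libraries and 93.2, 97.4 and 111 in *Ctnnb1Δi.enh;ApcMin/+* libraries. The tumor groups overlapped, as knockout replicate 3 was above control replicates 1 and 2, and the log2 fold change was -0.21 (SE 0.136, limma adjusted p = 0.491), or -0.0865 without control replicate 3. It was -0.32 with the same total per library and -0.38 with quantile normalization. *Notum* also overlaps the antisense genes *Notumos*, with a mean of 21.5 FPKM in tumors, and *Myadml2os*, with 11.6, so part of its fragments may belong to them.

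WIF1 binds Wnt ligands outside the cell. *Wif1* (chr10:121033960-121100650, plus strand) had 21 fragments in wild-type and 17 in *Ctnnb1Δi.enh* crypts. In tumors it was at 243, 215 and 258 FPKM in *ApcMin/+* libraries and at 220, 198 and 220 in *Ctnnb1Δi.enh;ApcMin/+* libraries, with overlapping groups and a mean 10.8% lower in the knockout. Its log2 fold change was -0.16 (SE 0.116, limma adjusted p = 0.526), or -0.10 without control replicate 3. With the same total per library the value was -0.27, and with quantile normalization -0.38.

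The Dickkopf proteins include ligands of the LRP co-receptors, among them DKK2, while DKK3 is a divergent member of the family. *Dkk2* (chr3:132085292-132180304, plus strand) was listed at 0 in all 6 crypt libraries, where 3 fragments would correspond to 0.0483 to 0.0576 FPKM. In tumors it had 35.3, 26.9 and 38.7 FPKM in *ApcMin/+* libraries and 33.2, 26.0 and 37.0 in *Ctnnb1Δi.enh;ApcMin/+* libraries. These groups overlapped almost completely, and the log2 fold change of -0.07 (SE 0.179, limma adjusted p = 0.879) was the smallest among the feedback genes in tumors and became 0.04 without control replicate 3 and 0.07 without knockout replicate 2. *Dkk3* (chr7:112116017-112159057, minus strand) had 55 fragments in wild-type and 32 in *Ctnnb1Δi.enh* crypts. Its tumor FPKM was 54.9, 58.1 and 72.7 in *ApcMin/+* libraries and 45.8, 44.9 and 49.7 in *Ctnnb1Δi.enh;ApcMin/+* libraries. Here all knockout values lay below all control values, the mean was 24.4% lower, and the log2 fold change was -0.39 (SE 0.123, limma adjusted p = 0.297).

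APCDD1 is a membrane glycoprotein that binds Wnt ligands and LRP receptors. *Apcdd1* (chr18:62922327-62953195, plus strand) had 0.462, 0.888 and 1.28 FPKM in wild-type crypts and 0.724, 0.299 and 0.229 in *Ctnnb1Δi.enh* crypts, from at most 56 fragments in a library. Its knockout mean of 0.417 FPKM lay below the minimum of 0.5, and it was tested because the wild-type mean of 0.875 raised the mean of all 6 libraries to 0.646. In tumors it had 107, 139 and 291 FPKM in *ApcMin/+* libraries and 102, 112 and 117 in *Ctnnb1Δi.enh;ApcMin/+* libraries. Both comparisons overlapped, and control replicate 3 of the tumors stood far above every other library. The log2 fold changes, -0.58 in crypts (SE 0.323, limma adjusted p = 0.877) and -0.56 in tumors (SE 0.345, limma adjusted p = 0.471), had the largest standard errors of the feedback genes tested in each tissue. Without control replicate 3 the tumor value was -0.14, and without wild-type replicate 3 the crypt value was -0.37. The crypt value was -0.94 with a pseudocount of 0.1 and -1.09 with voom.

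*Sp5* (chr2:70474923-70477729, plus strand) encodes a zinc finger transcription factor that is a direct target of β-catenin and TCF/LEF factors. Among the 6 genes tested in crypts it alone did not have a lower mean in the knockout. Wild-type crypts had 6.92, 5.70 and 6.96 FPKM and *Ctnnb1Δi.enh* crypts 10.5, 6.34 and 7.12. The high value of knockout replicate 1 set this difference, and the log2 fold change of 0.25 (SE 0.197, limma adjusted p = 0.901) was 0.04 without it. In tumors *Sp5* had 30.9, 36.4 and 47.5 FPKM in *ApcMin/+* libraries and 33.6, 27.6 and 42.3 in *Ctnnb1Δi.enh;ApcMin/+* libraries, with overlapping groups. The tumor log2 fold change of -0.15 (SE 0.206, limma adjusted p = 0.755) was 0.0187 without control replicate 3 and 0.00101 without knockout replicate 2.

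TCF/LEF factors recognize DNA with the core CTTTGA, and these letters were searched on both strands in promoter windows of RefSeq (GRCm38.p6) from 250 bases before to 50 bases after a transcription start. Windows were found for 6 of the 10 genes, *Axin2*, *Dkk2*, *Nkd1*, *Rnf43*, *Sp5* and *Wif1*, and not for *Znrf3*, *Notum*, *Dkk3* and *Apcdd1*. *Sp5* had 2 matches in its window and the other 5 genes had 0, including both starts of *Rnf43*, while 16.0% of all 32851 windows hold at least 1. Counted by gene, 1 of the 6 (16.7%) had a match, beside 18.2% of all 27025 genes with a window. The 250 bases before the start of *Sp5* (chr2:70474673-70474922, plus strand) and of *Axin2* (chr11:108920099-108920348, plus strand) are shown as the window with matches and as that of the most abundant crypt gene, with the matches in capitals, 204 and 104 bases before the *Sp5* start. A match describes the letters of the window and no binding was measured.
Sp5: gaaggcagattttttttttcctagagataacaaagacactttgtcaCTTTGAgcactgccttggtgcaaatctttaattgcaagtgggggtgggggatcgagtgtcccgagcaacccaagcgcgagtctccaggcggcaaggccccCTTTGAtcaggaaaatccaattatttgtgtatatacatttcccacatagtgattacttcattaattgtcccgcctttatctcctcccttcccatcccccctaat
Axin2: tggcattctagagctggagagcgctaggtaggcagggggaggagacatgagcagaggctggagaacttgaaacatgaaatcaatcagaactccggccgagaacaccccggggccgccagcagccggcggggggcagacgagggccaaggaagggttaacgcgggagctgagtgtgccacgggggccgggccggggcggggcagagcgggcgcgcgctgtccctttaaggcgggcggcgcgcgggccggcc

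Counted together, 5 of the 6 feedback genes tested in crypts and all 10 in tumors had a negative log2 fold change. Of all genes tested 47.2% in crypts and 48.7% in tumors had one. The 5 include *Apcdd1*, which passed the minimum only through its wild-type level, and at a minimum of 1 FPKM 4 of 5 genes were lower in crypts, with a median of -0.32. None had an adjusted p under 0.05 in limma in either tissue, where 0 of 14176 genes (0%) and 0 of 16743 genes (0%) passed, and voom in limma on the recovered fragments also called 0 in each. At an unadjusted p under 0.05, 335 genes were lower and 494 higher in knockout crypts, and 1004 were lower and 1417 higher in knockout tumors. In crypts 1 of the 6 feedback genes, *Axin2*, was lower at that level, against 2.36% of all genes tested, and *Axin2*, *Rnf43* and *Znrf3* had all knockout libraries below all controls, against 5.15%. In tumors 5 of the 10, *Axin2*, *Nkd1*, *Rnf43*, *Znrf3* and *Dkk3*, were lower at an unadjusted p under 0.05, against 6.0% of all genes tested. The same 5 had all knockout libraries below all controls, against 10.6%. In the other direction, 963 of all genes tested in crypts and 1912 in tumors had all knockout libraries above all controls. The median log2 fold change was -0.34 over the 6 genes tested in crypts and -0.31 over the 10 in tumors, beside 0.0144 and 0.00751 over all genes tested. The genes were selected by name with earlier results of these data known, so these counts are a description.

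The count in crypts was 0 without wild-type replicate 2, wild-type replicate 3 or knockout replicate 3, and 0 with all libraries scaled to the same total. Under that scaling 0 of the 6 genes had all knockout libraries below all controls in crypts, beside 309 of all 14176 genes, the median was -0.20, and *Axin2* was at -0.22, *Rnf43* at -0.18 and *Znrf3* at -0.0966. The scaling also moved the median of all crypt genes from 0.0144 to 0.144 and their split at an unadjusted p under 0.05 to 159 lower and 734 higher. In tumors the same scaling gave 1785 lower and 731 higher, and 7 feedback genes lower. The tumor count was 3 without knockout replicate 1. Without control replicate 3 or knockout replicate 2 of the tumors, 8 of the 10 genes had a negative log2 fold change.

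The libraries of a group did not vary independently from gene to gene. In *ApcMin/+* tumors replicate 3 had the highest level of its group for all 10 feedback genes, and in *Ctnnb1Δi.enh;ApcMin/+* tumors replicate 3 was the highest for 8 of 10. Over the 10 genes, the median deviation from the mean of the *ApcMin/+* libraries on the log2 scale was -0.06, -0.11 and 0.22 for these libraries themselves and -0.31, -0.35 and -0.27 for those of *Ctnnb1Δi.enh;ApcMin/+* mice. In crypts wild-type replicate 3 and knockout replicate 1 were each the highest of their group for 5 of the 6 genes tested. The medians there were -0.04, -0.07 and 0.11 in wild-type and -0.13, -0.34 and -0.43 in *Ctnnb1Δi.enh* libraries. On the deposited scale all 3 knockout medians thus lay below all 3 control medians in both tissues, and other scalings were not applied to these medians. The crypt medians include *Apcdd1*, which passed the minimum only through its wild-type level. With the same total per library, 0 of the 6 crypt genes had all knockout libraries below all controls.

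**Figure D3:**
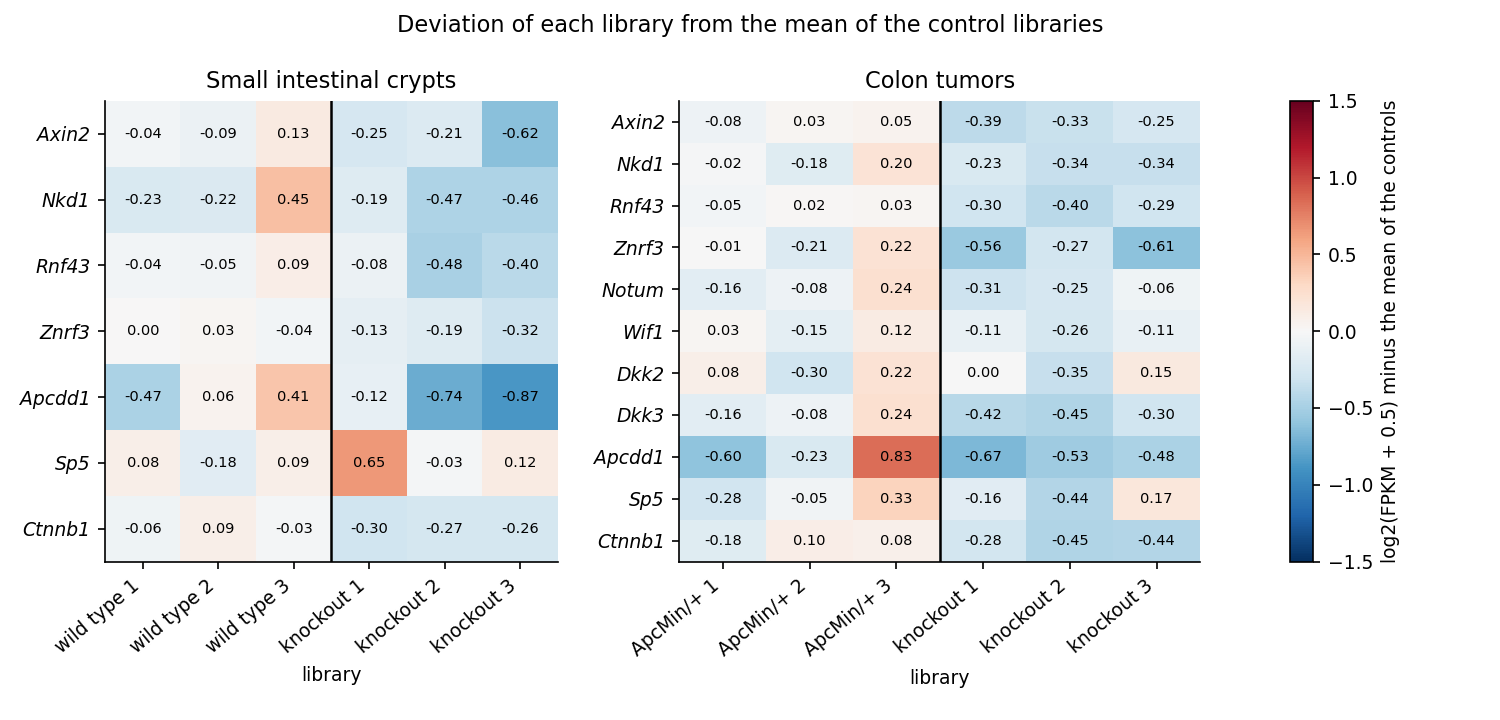
Deviation of each library from the mean of the control libraries, as log2(FPKM + 0.5), for the feedback genes tested in a tissue and for *Ctnnb1* (rows), with controls left and knockouts right of the black line. Knockout columns are mostly blue in both tissues, and control replicate 3 of the tumors is red in every row of a feedback gene, most of all for *Apcdd1* at 0.83.

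The 2 tumor libraries numbered 3 differed from the others in sex. Their *Xist* was at 114 and 61.4 FPKM, against at most 0.0623 in the other 4 tumor libraries, and their Y-linked *Ddx3y* was at 0 and 0.0247 FPKM, against at least 8.65. With both left out, an alternative chosen after seeing the data, all 10 feedback genes still had negative log2 fold changes, with a median of -0.18, and 3 were lower at an unadjusted p under 0.05. *Axin2* was then at -0.33, *Rnf43* at -0.34 and *Dkk3* at -0.31. *Znrf3* moved from -0.48 to -0.31 and *Nkd1* from -0.30 to -0.18. The part of sex in the levels of the feedback genes was not tested.

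Whether the knockout effect differed between the tissues was tested with an interaction contrast in limma over all 12 libraries. Of 13370 genes tested in both tissues, 0 (0%) had an adjusted p under 0.05, while 491 with a negative and 642 with a positive difference had an unadjusted p under 0.05. With voom the count at an adjusted p under 0.05 was also 0. The effect in tumors minus that in crypts was 0.04 for *Axin2* (95% confidence interval -0.33 to 0.40), -0.01 for *Rnf43* (-0.35 to 0.32), and 0.07 for *Nkd1* (-0.48 to 0.62). It was -0.27 for *Znrf3* (-0.67 to 0.13), 0.02 for *Apcdd1* (-1.04 to 1.08) and -0.39 for *Sp5* (-1.06 to 0.27). Every interval included 0 and extended past the size of the effects themselves.

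Other parts of the pathway were compared by lists chosen by gene function. Of 25 genes listed as other Wnt antagonists, 9 were tested in crypts, where 7 were lower and 2 higher in the knockout with a median log2 fold change of -0.17. In tumors 16 were tested, 7 of them lower and 9 higher, with a median of 0.02. With the same total per library 6 were lower and 3 higher in crypts with a median of -0.0425, and 9 were lower and 7 higher in tumors with a median of -0.0832. *Bambi* had the only crypt value at an unadjusted p under 0.05. It encodes a decoy receptor of BMP and activin signaling that has also been described to enhance Wnt signaling at the receptor, so its place among antagonists is doubtful. It had 2.65, 3.84 and 5.0 FPKM in wild-type and 2.46, 2.36 and 2.18 in *Ctnnb1Δi.enh* libraries, with a log2 fold change of -0.58 (limma adjusted p = 0.811). In tumors *Dact3*, which encodes a Dishevelled-binding protein, had 2.96, 2.07 and 1.95 FPKM in *ApcMin/+* and 3.60, 4.25 and 3.58 in *Ctnnb1Δi.enh;ApcMin/+* libraries, a log2 fold change of 0.62 (limma adjusted p = 0.274). *Kremen2*, a co-receptor of Dickkopf proteins, had a log2 fold change of 0.46 there (limma adjusted p = 0.336).

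Frizzled receptors, the substrates of RNF43 and ZNRF3, belonged to a list of 13 genes of Wnt receptors and β-catenin, all tested in tumors. At an unadjusted p under 0.05, 3 of them, *Fzd6*, *Fzd10* and *Ctnnb1*, were lower and 2, *Fzd5* and *Fzd8*, higher in the knockout, and the median of the list was -0.05. With the same total per library 3 were lower and 1 higher at that level, with a median of -0.15. *Fzd6* had 10.1, 10.4 and 9.98 FPKM in *ApcMin/+* tumors and 7.87, 5.94 and 5.27 in *Ctnnb1Δi.enh;ApcMin/+* tumors, a log2 fold change of -0.66 (limma adjusted p = 0.269). *Fzd10* had 9.48, 10.9 and 15.0 FPKM in *ApcMin/+* tumors and 7.34, 5.10 and 5.94 in *Ctnnb1Δi.enh;ApcMin/+* tumors, a log2 fold change of -0.88 (limma adjusted p = 0.269). *Fzd5* was higher in the knockout, with 5.15, 4.62 and 3.94 FPKM in *ApcMin/+* tumors and 5.81, 6.36 and 6.88 in *Ctnnb1Δi.enh;ApcMin/+* tumors, a log2 fold change of 0.44 (limma adjusted p = 0.285). *Fzd8* was at 1.94 ± 0.259 FPKM in *ApcMin/+* and 2.96 ± 0.573 in *Ctnnb1Δi.enh;ApcMin/+* tumors (SD, n = 3 each), a log2 fold change of 0.50 (limma adjusted p = 0.306). The groups of these 4 receptors did not overlap. In crypts 11 genes of the list were tested, 9 were lower and 2 higher with a median of -0.10, and 0 had an unadjusted p under 0.05, but with the same total per library 5 were lower and 6 higher.

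Of 7 genes of R-spondins and LGR receptors, 3 were tested in crypts and 4 in tumors, with medians of -0.40 and -0.02 and 0 at an unadjusted p under 0.05 in either tissue. With the same total per library these medians were -0.26 and -0.12. Of the 3 crypt genes *Rspo1* passed the minimum only through its wild-type mean of 0.820 FPKM, as its knockout mean was 0.460. The most abundant, *Lgr4*, was at 31.3 ± 6.68 FPKM in wild-type and 26.5 ± 1.65 in *Ctnnb1Δi.enh* crypts (SD, n = 3 each), and at 30.7 ± 9.36 in *ApcMin/+* and 30.2 ± 4.85 in *Ctnnb1Δi.enh;ApcMin/+* tumors (SD, n = 3 each). Of 11 genes of the destruction complex, 10 were tested in each tissue, with medians of -0.02 in crypts and -0.15 in tumors, or 0.10 and -0.26 with the same total per library. In tumors 8 of the 10 were lower, or 9 with that scaling, and *Amer1*, which encodes a membrane anchor of APC, and *Csnk1e*, a casein kinase gene, were so at an unadjusted p under 0.05 with log2 fold changes of -0.44 (limma adjusted p = 0.305) and -0.27 (limma adjusted p = 0.335). In crypts 6 of 10 were lower, but 2 of 10 with the same total per library, and the most abundant gene, *Csnk1a1*, was at 36.7 ± 4.20 FPKM in wild-type and 38.0 ± 2.41 in *Ctnnb1Δi.enh* libraries (SD, n = 3 each).

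Of 19 other epithelial Wnt target genes, 18 were tested in each tissue, and 12 of them were lower and 6 higher in the knockout of each. The medians were -0.15 in crypts and -0.07 in tumors. With the same total per library the list split into 9 lower and 9 higher in crypts, and into 15 lower and 3 higher in tumors with a median of -0.18 and 3 lower at an unadjusted p under 0.05. Without this scaling 1 gene in each tissue was lower at an unadjusted p under 0.05. In crypts this was *Mmp7*, a Paneth cell protease gene, with a log2 fold change of -0.72 (limma adjusted p = 0.757). In tumors it was *Prox1*, a transcription factor gene, with 55.7, 63.4 and 87.4 FPKM in *ApcMin/+* and 38.1, 46.8 and 37.7 in *Ctnnb1Δi.enh;ApcMin/+* libraries and a log2 fold change of -0.73 (limma adjusted p = 0.269). The groups of *Prox1* did not overlap, and its replicate 3 was the highest control, as for the feedback genes.

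**Figure D4:**
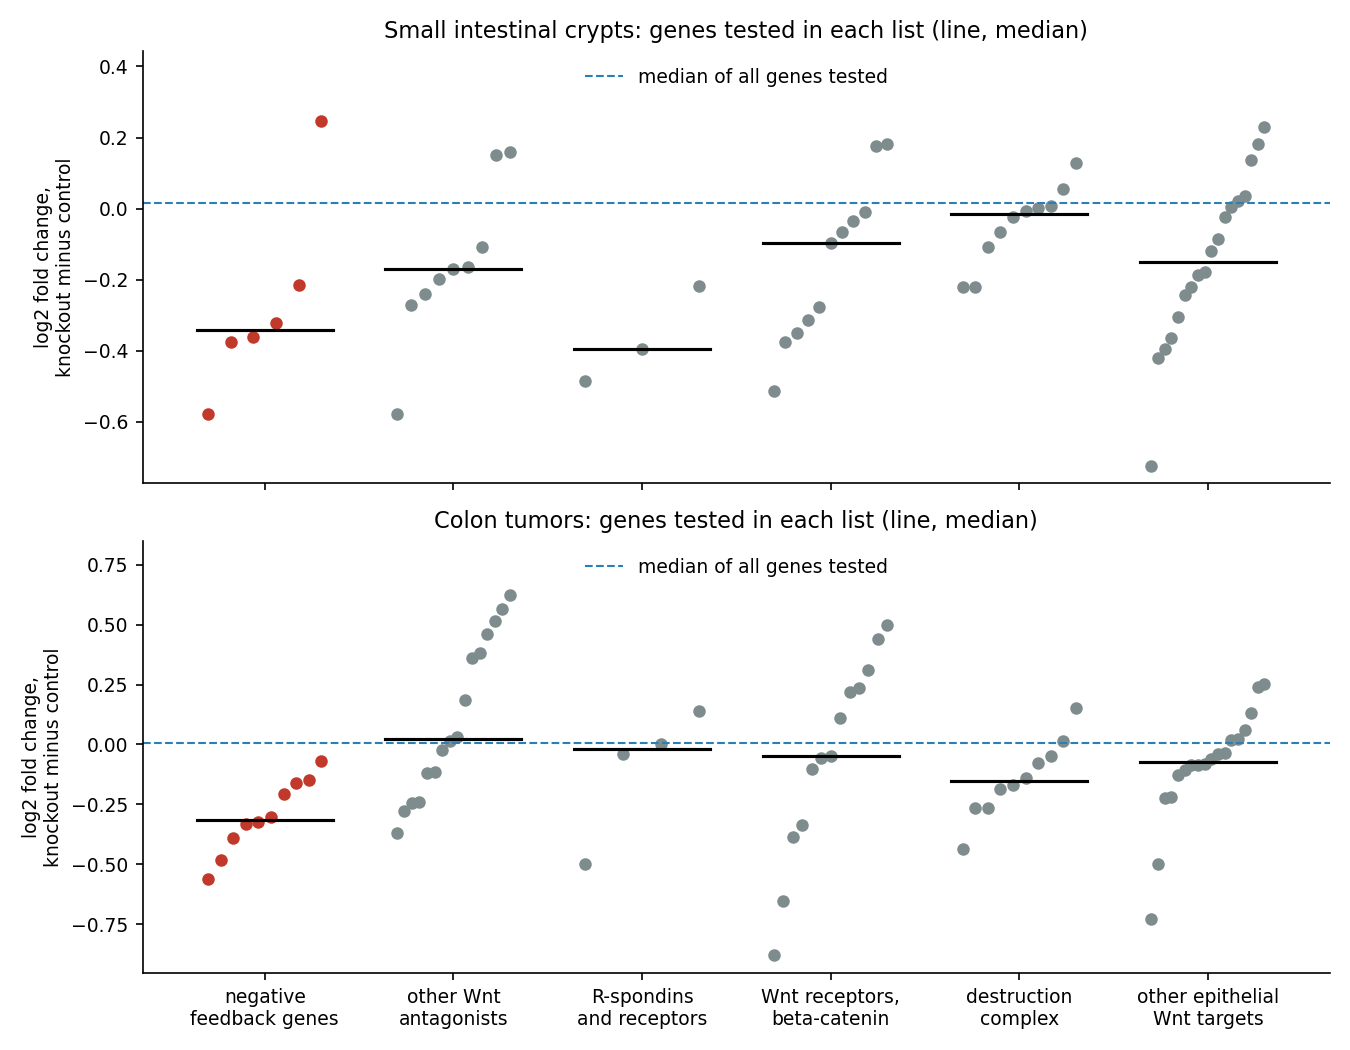
Log2 fold change, knockout minus control, of each gene tested in the feedback list (red) and in the other pathway lists (gray), in crypts (top) and tumors (bottom), with black lines for list medians and a dashed line for the median of all genes tested. In this fit of the tumors all 10 feedback genes lie below 0 with a median of -0.31, whereas genes of the other lists lie on both sides of 0. Without control replicate 3 or knockout replicate 2 of the tumors, 8 of the 10 feedback genes were lower. With the same total per library all 10 were lower, as were 9 of 10 destruction complex genes and 15 of 18 other epithelial Wnt targets.

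Marker genes of cell types were examined beside these results. In crypts the 7 epithelial markers were all present and 4 were lower and 3 higher in the knockout, with *Krt8* the most abundant, although all 7 were higher with the same total per library. Their summed level was 3959, 4682 and 4986 FPKM in wild-type and 4342, 5236 and 4777 in *Ctnnb1Δi.enh* libraries, which overlap. All 6 Paneth cell markers were lower in the knockout, 1 of them, *Mmp7* of the Wnt target list, at an unadjusted p under 0.05. The median of these markers was -0.67, or -0.33 with quantile normalization. Their summed level was 21187, 31365 and 57146 FPKM in wild-type and 22983, 20549 and 20553 in *Ctnnb1Δi.enh* libraries. The most abundant was *Defa24*, the sums overlapped, and wild-type replicate 3, which was also the highest control for 5 of 6 feedback genes, stood far above the rest. The part of Paneth cells in the crypt values of the feedback genes was not tested.

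Markers of cell types outside the epithelium were low in the crypt libraries. The 7 fibroblast markers summed to between 1.77 and 5.96 FPKM, the 5 smooth muscle markers to at most 0.389, the 4 endothelial markers to at most 0.883 and the 7 immune cell markers to between 16.4 and 21.2 FPKM. Among epithelial cell types, the 6 goblet cell markers summed to between 5138 and 9076 FPKM and the 5 enterocyte markers to between 2945 and 8644 FPKM, with overlapping groups. Of the goblet cell markers 5 of 6 were lower in the knockout with a median of -0.29, and all 5 enterocyte markers were higher with a median of 0.53, with 0 at an unadjusted p under 0.05 in either list. With the same total per library these medians were -0.14 and 0.67, and 1 enterocyte marker was higher at that level. Of 6 immune cell markers tested 5 were lower with a median of -0.26, and *Ptprc* was so without overlap. With the same total per library this median was -0.13, and 0 immune cell markers were lower and 1 higher without overlap. Both fibroblast markers tested were lower, 1 of them, *Col3a1*, at an unadjusted p under 0.05. *Col3a1* passed the minimum of 0.5 FPKM only through its wild-type mean of 0.746, as its knockout mean was 0.361. With the same total per library or quantile normalization 0 fibroblast markers were lower at that level. The part of these cell types in the crypt values of the feedback genes was not tested. The 6 colonocyte markers, with *Hoxb13* at 0 in all 6 libraries, summed to 79.7, 65.6 and 56.1 FPKM in wild-type and 106, 105 and 136 in *Ctnnb1Δi.enh* libraries, without overlap, and *Car4* was the most abundant. Wild-type replicates 1 and 2 also held stomach transcripts, as the 5 stomach markers summed to 37.9 and 37.3 FPKM there and to at most 2.24 in the other 4 libraries. *Gkn1*, *Gkn2*, *Muc5ac* and *Tff1* were at 0 in every knockout library, and *Pgc* was the most abundant. Leaving out these 2 libraries, an alternative chosen after seeing the data, keeps only wild-type replicate 3 as control. That library was the highest control for 5 of the 6 feedback genes tested, so the comparison cannot show how the stomach transcripts bear on them, and its values are not used.

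In tumors all 7 epithelial markers were higher in every *Ctnnb1Δi.enh;ApcMin/+* library than in every *ApcMin/+* library, with a median of 0.35, but 2 of 7 were lower under quantile normalization. With the same total per library 4 were higher without overlap and the median was 0.23. With quantile normalization 1 was higher without overlap and the median was 0.11. The 7 markers summed to 4172, 4206 and 3656 FPKM in *ApcMin/+* and 4931, 4798 and 5085 in *Ctnnb1Δi.enh;ApcMin/+* libraries, and *Krt8* was the most abundant. Over all 16743 tumor genes tested, 1912 were higher without overlap and 1417 were higher at an unadjusted p under 0.05 in limma. All 6 goblet cell markers were higher at an unadjusted p under 0.05 and without overlap, with a median of 1.05. They summed to 1298, 1321 and 1344 FPKM in *ApcMin/+* and 2484, 2949 and 2666 in *Ctnnb1Δi.enh;ApcMin/+* libraries, and *Spink4* was the most abundant. Their part in the tumor values of the feedback genes was not tested.

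Stromal markers were plentiful in tumors. All 7 fibroblast markers had higher means in the knockout, 4 of them at an unadjusted p under 0.05, but with the same total per library 1 was lower and 1 had an unadjusted p under 0.05. They summed to 539, 371 and 343 FPKM in *ApcMin/+* and 516, 637 and 514 in *Ctnnb1Δi.enh;ApcMin/+* libraries, which overlap, and *Fn1* was the most abundant. The 5 smooth muscle markers summed to between 129 and 179 FPKM and the 7 immune cell markers to between 34.5 and 59.1 FPKM. Of the smooth muscle markers 3 were lower and 2 higher in the knockout. *Acta2* was higher without overlap, with a log2 fold change of 0.32 at an unadjusted p under 0.05. With the same total per library 0 smooth muscle markers were at that level. The 4 endothelial markers summed to 30.9, 29.0 and 26.1 FPKM in *ApcMin/+* and 33.6, 31.9 and 31.1 in *Ctnnb1Δi.enh;ApcMin/+* libraries, without overlap. Of these 4, 3 were higher in the knockout, but 1 with the same total per library, and *Pecam1* was higher without overlap at an unadjusted p of 0.00558, with a log2 fold change of 0.47 (limma adjusted p = 0.269). All 6 Paneth cell markers had higher means in the knockout, 0 of them at an unadjusted p under 0.05, and summed to 1605, 1758 and 1863 FPKM in *ApcMin/+* and 2498, 3909 and 1362 in *Ctnnb1Δi.enh;ApcMin/+* libraries, which overlap. Of these 6, 1 was lower with the same total per library, with quantile normalization and without the 50 highest genes, and the median of 0.32 was 0.0948 with quantile normalization. All 6 colonocyte markers also had higher means in the knockout, 1 of them at an unadjusted p under 0.05, and summed to 157, 178 and 184 FPKM in *ApcMin/+* and 217, 318 and 274 in *Ctnnb1Δi.enh;ApcMin/+* libraries, without overlap. Their part in the tumor values of the feedback genes was not tested either. The 5 enterocyte markers summed to at most 6.38 FPKM and the 5 stomach markers to at most 2.57 FPKM. *Hoxb13*, a marker of the distal colon, was the most abundant colonocyte marker at a mean of 96.9 FPKM.

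**Figure D5:**
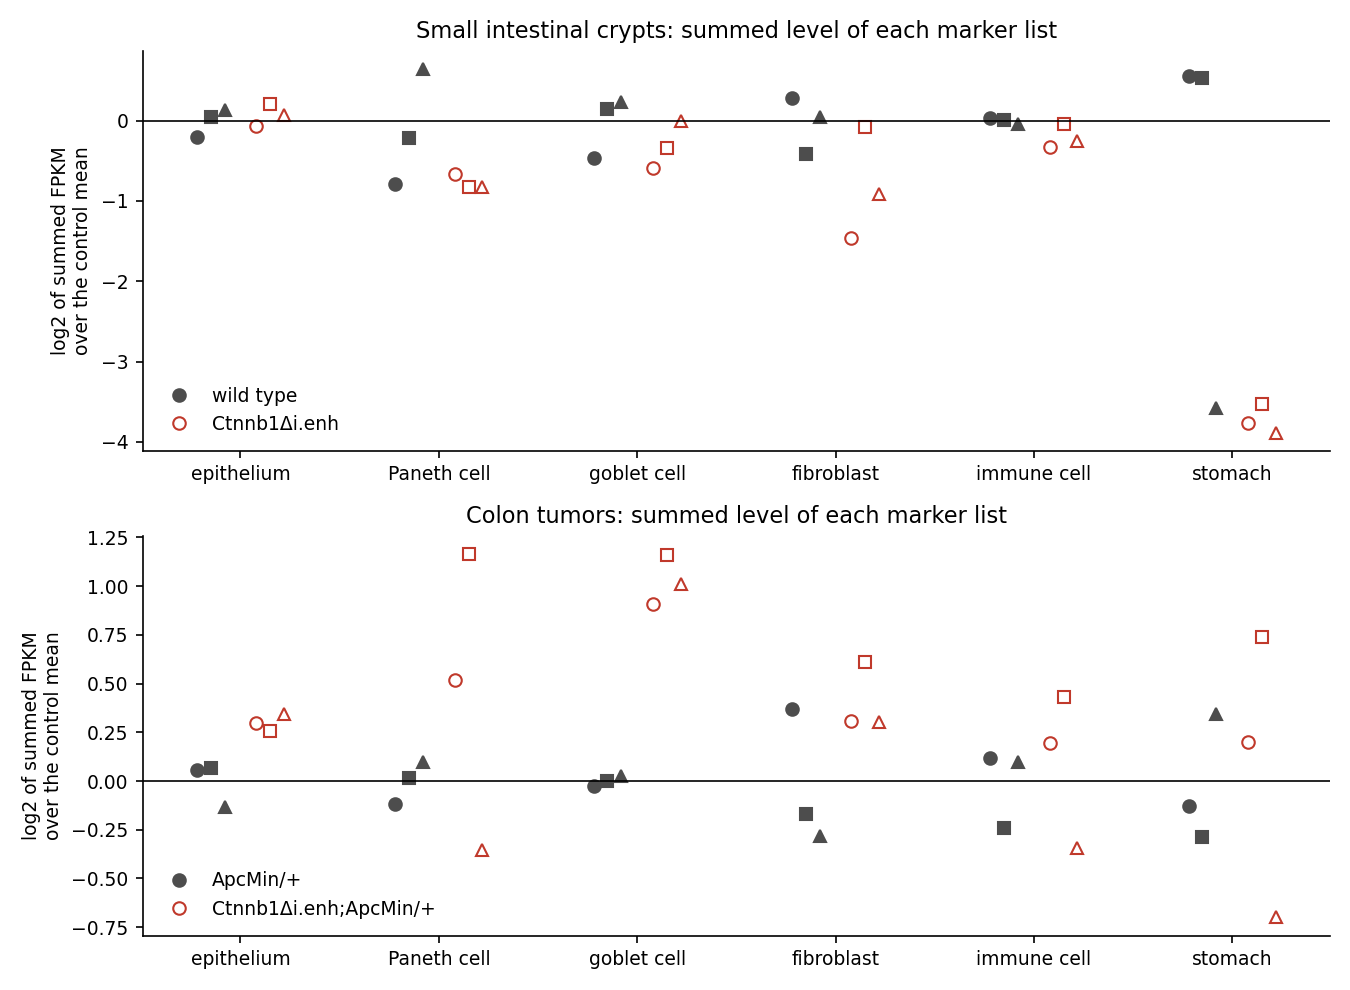
Summed FPKM of each marker list in each library, as log2 of the ratio to the mean of the control libraries, in crypts (top) and tumors (bottom), with filled symbols for controls, open symbols for knockouts, and circle, square and triangle for replicates 1, 2 and 3. Stomach markers are high in wild-type replicates 1 and 2 alone, and goblet cell markers are higher in all 3 *Ctnnb1Δi.enh;ApcMin/+* tumors than in all 3 *ApcMin/+* tumors.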

How the data were processed

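Total RNA of crypts, released from the small intestine with EDTA, and of colon tumors was made into libraries with a NEBNext Ultra II kit. Per the study's methods, reads were aligned with Hisat2 and counted per gene with featureCounts. The submitters' processing notes name cutadapt, HISAT2, Cufflinks 2.2.1, DESeq2 and the build mm10. The authors deposited FPKM of every gene for each replicate. The use of strand and the way FPKM were computed are not given in the sources used here. Positions of 9 of the 10 genes equal those of GENCODE M21 on GRCm38, and that of *Apcdd1* overlaps it.

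Multiplied by gene length, the authors' FPKM fell on whole multiples of 1 step per library (100% of values within a tolerance of 0.01 fragments, relaxed in proportion for high counts), which gave the fragments. Genes with a mean of at least 0.5 FPKM were tested on log2(FPKM + 0.5) with limma 3.58.1 (R 4.3.3), using a variance trend, Benjamini-Hochberg adjustment over all genes tested and no covariates, after a test on simulated data. Confidence intervals are at 95%. Single genes were compared with exact permutation tests (Python 3.11.15). Named genes are the 10 feedback genes, *Ctnnb1*, up to 4 genes of each other list with the smallest unadjusted p under 0.05 in a tissue or else its most abundant gene, and the 3 genes nearest to *Axin2* in each tissue. *Xist*, *Ddx3y*, *Rspo1*, overlapping genes and single marker genes were named after their values were seen. The members and lists were chosen with earlier results of these data known. Alternatives covered pseudocount, filter, scaling, moderation, a replicate block, voom, 1 fit of all libraries and leaving out each library.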

Additional observations from a re-analysis of the deposited data

How the results depend on the processing

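Of 16 effects of single feedback genes, 14 kept their direction under all of 18 to 20 alternatives, not counting the fit with 1 wild-type library, and the lowest adjusted p among them was 0.193. The others were *Dkk2* and *Sp5* in tumors, which ranged from -0.22 to 0.0726 and from -0.30 to 0.0187 with each library left out. With quantile normalization they were at -0.18 and -0.28, and *Axin2* and *Nkd1* in tumors at -0.52 and -0.51. Filters, moderation, the replicate block, median of ratios scaling and 1 fit of all libraries left the fold change of each gene as it was. Those alternatives could not change a direction. The count of feedback genes lower at an unadjusted p under 0.05 in crypts, 1, was 0 with the same total per library, no variance trend, a replicate block or voom, and 2 with quantile normalization, rescaling without the 50 highest genes or 1 fit of all 12 libraries. With each library left out it was 0 to 1. In tumors this count, 5, was 7 with the same total per library, quantile normalization or rescaling without the 50 highest genes, 3 in 1 fit of all 12 libraries, 3 to 5 with each library left out and 3 without both libraries numbered 3, an alternative chosen after seeing the data. Over all 16743 tumor genes tested, the same count was 1004 in the main fit and 1785 with the same total per library. It was 1282 with quantile normalization and 1953 without the 50 highest genes. Over all 14176 crypt genes it was 335 in the main fit, and 159, 328 and 508 under these scalings in that order. With libraries left out, the count over all genes is not given here. The median of the 10 genes in tumors, -0.31, was -0.50 with quantile normalization, -0.18 without the libraries numbered 3, and -0.34 to -0.17 with each library left out.

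Genes with an adjusted p under 0.05 numbered 14 in crypts and 27 in tumors with no filter on FPKM, 1 in crypts and 9 in tumors in 1 fit of all 12 libraries, 1 in tumors with no variance trend, and 0 to 3 in crypts with each library left out. None of the 10 feedback genes was among them under any alternative. For the difference between tissues, 1 gene passed with a pseudocount of 0.1. Differences near 0 changed sign. *Axin2* was at -0.10 with quantile normalization, -0.0301 with voom and -0.10 to 0.11 with each library left out. *Nkd1* was at -0.0117 with a pseudocount of 1, -0.20 with quantile normalization and -0.15 to 0.19 with each library left out. *Apcdd1* was at -0.16, -0.26 and -0.28 to 0.43 in the same order, and *Rnf43* at -0.0931 to 0.11 with each library left out. The cause was not tested.

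Over all genes tested, the deviations of control and knockout libraries with the same replicate number had correlations of -0.0466, -0.122 and 0.0370 in crypts and 0.0541, -0.0898 and 0.0525 in tumors, which give no sign of pairing over all genes. The 2 tumor libraries numbered 3 nevertheless both expressed *Xist* and stood high in their groups for most feedback genes. The replicate block gave 0 feedback genes lower in crypts and 4 in tumors at an unadjusted p under 0.05. With 3 libraries a group, no exact test can go below p = 0.1, and 4 of the 10 genes had at most 33 fragments in a crypt library.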
